A study of Mus musculus with 10 samples.

Results

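The genes of major histocompatibility complex (MHC) class I antigen presentation were followed in whole kidneys of old Rragc S74N/+ and Rragc +/+ mice. The group was taken by gene symbol and held 10 of the 13299 genes with deposited values: the class I heavy chain genes H2-K1 and H2-D1, the light chain gene B2m, the peptide transporter genes Tap1 and Tap2, the tapasin gene Tapbp, the immunoproteasome genes Psmb8, Psmb9 and Psmb10, and the class I transactivator gene Nlrc5. The 10 members passed the filter on low values. The study asked what a mild and lasting rise in nutrient signaling does to mice as they age. Rragc encodes RagC, a small GTPase through which nutrients switch on the growth kinase mTORC1, and its S74N form is active. The samples were 5 Rragc S74N/+ kidneys, labelled RagC S74N (KI/+), and 5 Rragc +/+ kidneys, labelled RagC S74N (+/+). Mice of both groups were aged 1.5 years, with no treatment named. The S74N allele was knocked into the endogenous locus by Cas9 editing in the embryo, in C57BL/6 mice, so kidney epithelium and blood cells of a mouse carry it alike. Sex was not given per sample, and the number of founder clones behind these mice was not given in the sources used here.

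Class I molecules display peptides from proteins made inside a cell to CD8+ T cells. Peptides are cut by the proteasome, carried into the endoplasmic reticulum by the TAP transporter, and loaded with the help of tapasin onto a heavy chain paired with beta-2-microglobulin. Nearly all nucleated cells make class I molecules, and interferon gamma is known to raise these genes and to swap the constitutive catalytic subunits of the proteasome for the inducible ones. In bulk tissue, more cells of a type and more RNA per cell cannot be told apart.

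Libraries were primed on the poly(A) tail and read the 3′ ends of mRNAs, so transcript length has little part in the values. Other differences between genes, such as how well their reads map, were not measured, so levels of different genes compare only roughly. All values below are normalized counts, which are reads per gene divided by a size factor of the sample. The 8 samples whose reads could be recovered from these values held 4488493 to 5797251 reads. Proximal tubule markers, led by the phosphate transporter gene Slc34a1, summed to 120643 to 168030 normalized counts per sample, so the tissue label held. Rragc S74N/+ replicate 1 stood apart, with a mean Pearson's r of 0.915 to its own group against 0.943 to 0.957 for the other 9 samples. Members and counts of calls that moved by over 1.5 times without it are given with both values. Replicate numbers only name samples, in order of deposit.

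The stretches just before the transcription starts are shown first, because class I genes are known as targets of interferon and NF-kappa B responsive elements. RefSeq windows (GRCm38.p6) existed for 8 of the 10 members, with none for Tap2 and Nlrc5. In the 250 bases before the start, 4 sets of letters were searched on both strands, with N for any base: the interferon-stimulated response element core GAAA-NN-GAAA, the gamma-activated site TTC-NNN-GAA, a kappa B form GGG-NN-TT-N-CC and the Y box core CCAAT. Matches are in capitals, positions are counted from -1 at the base before the start, and windows run 5′ to 3′ along the gene's strand. H2-D1 (chr17:35262844-35263093, plus strand) is shown for a heavy chain, B2m (chr2:122147437-122147686, plus strand) as the member with 3 kinds of match, Tap1 (chr17:34187306-34187555, plus strand) for the stretch it shares with Psmb9, and Psmb8 (chr17:34197945-34198194, plus strand) as the member with a gamma-activated site.
H2-D1: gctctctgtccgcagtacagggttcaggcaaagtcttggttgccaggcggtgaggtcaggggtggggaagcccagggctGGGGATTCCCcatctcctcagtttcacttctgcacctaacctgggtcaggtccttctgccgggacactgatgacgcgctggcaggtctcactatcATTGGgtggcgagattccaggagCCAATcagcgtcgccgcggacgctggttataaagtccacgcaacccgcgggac
B2m: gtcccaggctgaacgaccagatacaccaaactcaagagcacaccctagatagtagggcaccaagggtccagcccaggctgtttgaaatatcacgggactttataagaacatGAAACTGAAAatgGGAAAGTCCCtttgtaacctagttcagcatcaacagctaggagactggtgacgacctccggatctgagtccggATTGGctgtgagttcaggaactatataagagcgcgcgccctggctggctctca
Tap1: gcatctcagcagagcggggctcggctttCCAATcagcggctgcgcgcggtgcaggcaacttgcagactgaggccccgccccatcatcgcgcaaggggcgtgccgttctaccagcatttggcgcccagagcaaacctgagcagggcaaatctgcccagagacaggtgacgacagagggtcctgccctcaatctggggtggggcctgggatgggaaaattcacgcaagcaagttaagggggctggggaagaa
Psmb8: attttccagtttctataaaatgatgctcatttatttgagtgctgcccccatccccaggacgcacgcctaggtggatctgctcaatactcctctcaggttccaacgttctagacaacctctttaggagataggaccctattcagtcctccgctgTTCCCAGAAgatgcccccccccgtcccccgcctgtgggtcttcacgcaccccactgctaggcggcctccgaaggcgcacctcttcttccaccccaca

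The kappa B letters lay in 3 of the 8 members, the chain genes H2-K1 (-111), H2-D1 (-171) and B2m (-126), against 4.0% of all 27025 promoter windows of that length. The match in H2-K1 read GGGGATTCCC, as in H2-D1. The response element core was found in B2m alone (-139), beside 3.04% of all windows, and the gamma-activated site in Psmb8 alone (-97), beside 7.18%. The Y box core was present in 6 of 8 members, all but Psmb8 and Psmb10, beside 34.5% of all windows. Tap1 and Psmb9 are read in opposite directions from starts 226 bases apart, and their windows have 225 bases in common. Their Y box matches are the same bases of this stretch read from either strand, so that site is counted for both members. Matches of different motifs did not overlap in these windows. A match describes letters in these windows and shows no binding. Only these strict letters were searched, so a window without a match may still hold another form of the same element. The builds of reads (GRCm39) and windows differ, and these coordinates belong to GRCm38.p6 only.

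Across the pathway, none of the 10 members passed the threshold in the limma fit on all genes (adjusted p under 0.05), beside 6.03% of the 13236 genes tested. Fitted differences were above 0 for 9 members, with a median log2 fold change of 0.55 against -0.01 for all genes tested. Psmb10, Psmb8 and Nlrc5 came closest, with adjusted p of 0.057, 0.061 and 0.070. At an unadjusted p under 0.05, 4 members were higher in Rragc S74N/+ kidneys (Tap1, Psmb8, Psmb10 and Nlrc5), and 12.6% of all genes were. The edgeR count model on the 8 recovered samples also called 0 members, beside 6.43% of all genes, and DESeq2 on the same reads called 1, Psmb10 (adjusted p = 0.028), beside 10.6%. Only Psmb10 had every Rragc S74N/+ value above every Rragc +/+ value, an arrangement held by 4.15% of all genes.

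**Figure D1:**
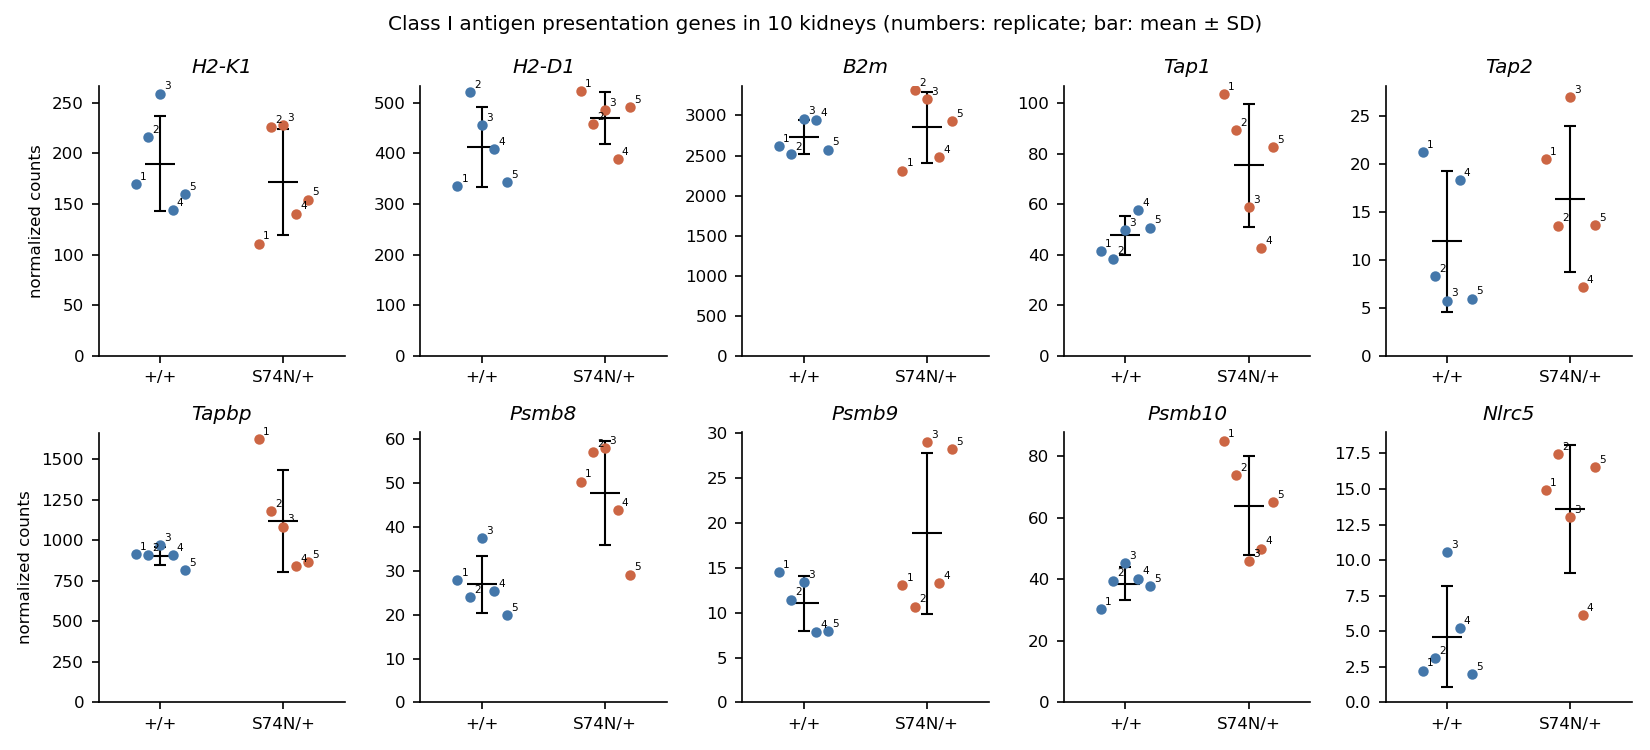
Normalized counts (vertical axes, each from 0) of the 10 class I presentation genes in 5 Rragc +/+ (blue) and 5 Rragc S74N/+ (orange) kidneys, with the replicate number beside each point and bars at the mean ± SD. The groups overlap in 9 panels, and in the panel for Psmb10 the lowest orange point (46.0) lies just above the highest blue point (45.1).

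The chain genes carried most of the reads of the group and differed least. H2-K1, a classical heavy chain, had 170.0, 216.4, 259.2, 144.1 and 160.2 normalized counts in Rragc +/+ kidneys and 111.0, 225.8, 227.9, 140.5 and 154.5 in Rragc S74N/+ kidneys. The highest of the 10 values was a Rragc +/+ sample and the lowest was Rragc S74N/+ replicate 1, with the remaining values interleaved. Its log2 fold change was -0.16 ± 0.21 (SE, 95% interval -0.61 to 0.28, limma adjusted p = 0.66), the only fitted difference below 0, and -0.02 without Rragc S74N/+ replicate 1. H2-D1, the other classical heavy chain, had 334.5, 521.2, 455.0, 408.7 and 343.2 in Rragc +/+ and 523.1, 457.5, 485.9, 389.1 and 491.6 in Rragc S74N/+ kidneys. One Rragc S74N/+ sample lay above the Rragc +/+ range, by less than 2 counts, and the others lay within it. H2-D1 differed by a log2 fold change of 0.20 ± 0.14 (SE, 95% interval -0.09 to 0.49, adjusted p = 0.38).

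B2m encodes the light chain shared by all class I molecules and was the most abundant member. It had 2618.9, 2522.7, 2961.4, 2946.5 and 2573.8 normalized counts in Rragc +/+ and 2312.7, 3316.8, 3206.3, 2482.0 and 2934.1 in Rragc S74N/+ kidneys. The Rragc S74N/+ values straddled the other group, with 2 samples above its range and 2 below. The group means were 2725 ± 212 and 2850 ± 440 (SD, n = 5), and the log2 fold change was 0.05 ± 0.12 (SE, 95% interval -0.20 to 0.31, limma adjusted p = 0.82). The sign of this difference was not stable, since it was -0.004 without Rragc S74N/+ replicate 2 and 0.13 without replicate 1. B2m exceeded H2-D1 in every sample, and H2-D1 exceeded H2-K1 in every sample, so the order of these counts lay outside the spread over samples. Class I chain genes share reads with near-identical copies. The authors let a read align to several places, and whether such reads were then counted was not stated. Both the levels of these chains and the split between them are therefore uncertain, also in the sums that follow. Summed over H2-K1 and H2-D1, levels were 503 to 738 in Rragc +/+ and 530 to 714 in Rragc S74N/+ kidneys. Over 6 class I chains, with H2-Q4, H2-Q6, H2-Q7 and H2-T22 added, the ranges were 669 to 919 and 711 to 918, which overlapped in the same way.

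None of the transporter and loading genes passed the threshold. Tap1, which forms the peptide transporter with Tap2, had 41.4, 38.5, 49.9, 57.6 and 50.7 normalized counts in Rragc +/+ and 103.5, 89.2, 59.0, 42.8 and 82.6 in Rragc S74N/+ kidneys. Rragc S74N/+ replicate 4 sat inside the other group's range and the other 4 lay above it. The log2 fold change of Tap1 was 0.60 ± 0.23 (SE, 95% interval 0.12 to 1.08, limma adjusted p = 0.12). Leaving out Rragc S74N/+ replicate 4 gave 0.78 with an adjusted p of 0.047, and leaving out replicate 1 gave 0.47 with 0.21. Tap2 was sparse, at 6 to 22 reads in the recovered samples. Its values were 21.3, 8.3, 5.8, 18.3 and 6.0 in Rragc +/+ and 20.5, 13.6, 27.0, 7.1 and 13.6 in Rragc S74N/+ kidneys. High and low samples occurred in both groups, and the log2 fold change of 0.49 ± 0.43 (SE, 95% interval -0.43 to 1.41, limma adjusted p = 0.50) was not stable. Leaving out Rragc S74N/+ replicate 3 gave 0.29 and leaving out Rragc +/+ replicate 3 or 5 gave 0.31 or 0.32, and the fits on the 8 recovered samples, which lack Rragc S74N/+ replicate 3 and Rragc +/+ replicate 5, gave 0.05 (edgeR), 0.04 (DESeq2) and 0.11 (limma).

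Tapbp encodes tapasin, which holds empty class I molecules at the transporter. It had 916.2, 908.2, 971.5, 909.1 and 815.8 normalized counts in Rragc +/+ kidneys, a narrow band, and 1622.6, 1180.6, 1083.8, 842.3 and 863.7 in Rragc S74N/+ kidneys. In 3 Rragc S74N/+ samples the value lay above that band and in 2 it lay within it. The log2 fold change was 0.27 ± 0.15 (SE, 95% interval -0.06 to 0.59, limma adjusted p = 0.29). It shrank to 0.12 when Rragc S74N/+ replicate 1 was left out. Tapbp was more abundant than Tap1 in every sample.

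The inducible catalytic subunits of the proteasome were low in both groups, with fitted differences above 0 that did not pass the threshold. Psmb8 encodes the beta-5i subunit, with chymotrypsin-like activity. It had 28.0, 23.9, 37.4, 25.3 and 19.9 normalized counts in Rragc +/+ and 50.4, 57.2, 58.0, 43.8 and 29.1 in Rragc S74N/+ kidneys. All Rragc S74N/+ samples but replicate 5 lay above the Rragc +/+ range. The log2 fold change was 0.79 ± 0.24 (SE, 95% interval 0.28 to 1.30), a 1.73-fold difference, with a limma adjusted p of 0.061. Leaving out Rragc S74N/+ replicate 5 gave an adjusted p of 0.040 and leaving out Rragc +/+ replicate 3 gave 0.046, whereas it was 0.080 without Rragc S74N/+ replicate 1. A model term that split samples by title number at 200 brought it to 0.040, and scaling to equal library totals to 0.0498. On the 8 recovered samples the adjusted p was higher, at 0.15 by edgeR, 0.16 by DESeq2 and 0.16 by limma. With 1 sample left out in turn, the limma adjusted p ran from 0.040 to 0.14.

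Psmb10 encodes the beta-2i subunit, with trypsin-like activity. It had 30.2, 39.5, 45.1, 40.2 and 37.8 normalized counts in Rragc +/+ and 84.9, 73.7, 46.0, 49.9 and 65.1 in Rragc S74N/+ kidneys. The groups did not overlap, though the gap between the nearest samples was under 1 count. Psmb10 had a log2 fold change of 0.69 ± 0.20 (SE, 95% interval 0.25 to 1.12), a 1.61-fold difference, with a limma adjusted p of 0.057. The adjusted p was 0.036 when Rragc S74N/+ replicate 3 was left out, 0.043 with equal library totals and 0.10 without replicate 1. Fits with 1 sample left out in turn gave 0.036 to 0.13, with the highest value without Rragc +/+ replicate 1. Genes with a smaller p than Psmb10 made up 6.91% of those tested.

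Psmb9 encodes the beta-1i subunit and shares its upstream stretch with Tap1. It had 14.5, 11.4, 13.4, 7.9 and 8.0 normalized counts in Rragc +/+ and 13.1, 10.7, 29.0, 13.2 and 28.2 in Rragc S74N/+ kidneys. Replicates 3 and 5 of the Rragc S74N/+ group stood above all others and its remaining 3 samples lay within the Rragc +/+ range. The log2 fold change was 0.64 ± 0.36 (SE, 95% interval -0.11 to 1.39, limma adjusted p = 0.27). Replicates 3 and 5 were not the samples in which Tap1 was highest, which were replicates 1 and 2.

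The constitutive counterparts of these subunits did not pass the threshold and were far more abundant. Psmb5 (beta-5), Psmb6 (beta-1) and Psmb7 (beta-2) averaged 780, 606 and 272 normalized counts in Rragc +/+ and 704, 679 and 257 in Rragc S74N/+ kidneys. Fitted differences on the log2 scale were -0.15 ± 0.11, 0.17 ± 0.13 and -0.10 ± 0.16 (SE), and limma gave adjusted p of 0.41, 0.43 and 0.73. Each inducible subunit was then set against the constitutive one that it replaces. As a percent, this removes any scaling between samples. The log2 ratios were taken after adding 1 to both values, so a little of the scaling can remain in them for low genes. These 3 ratios were compared by exact permutation of the genotype labels, two-sided, with Benjamini-Hochberg adjustment over the 3.

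**Figure D2:**
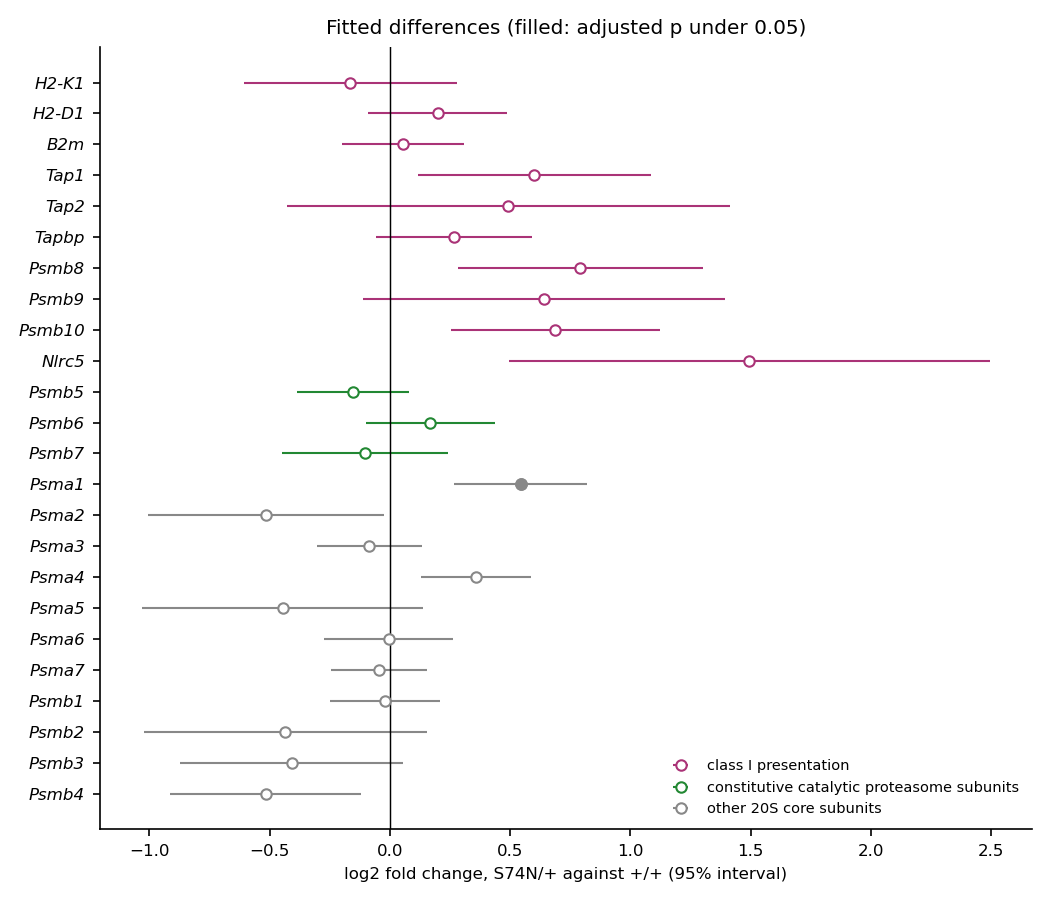
Fitted log2 fold changes (horizontal axis, Rragc S74N/+ against Rragc +/+, with 95% intervals from limma) of the class I presentation genes, the constitutive catalytic subunits and the other 20S core subunits. Psma1 (0.54) is the only filled point, which marks an adjusted p under 0.05, and the widest intervals belong to the sparse genes Tap2 and Nlrc5.

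Psmb8 amounted to 3.35%, 2.81%, 4.97%, 3.46% and 2.74% of Psmb5 in Rragc +/+ kidneys and to 8.71%, 7.47%, 7.33%, 6.48% and 4.12% in Rragc S74N/+ kidneys. The Rragc S74N/+ share was above all Rragc +/+ shares in 4 of 5 samples, replicate 5 being the exception. The mean rose from 3.47% ± 0.902 to 6.82% ± 1.71 (SD, n = 5), a difference of 0.95 on the log2 scale (exact permutation p = 0.016, adjusted p = 0.024). Psmb10 amounted to 11.7%, 11.6%, 16.3%, 16.4% and 15.8% of Psmb7 in Rragc +/+ kidneys and to 48.7%, 30.3%, 18.8%, 17.8% and 19.1% in Rragc S74N/+ kidneys. All 5 Rragc S74N/+ shares were above the Rragc +/+ range, and replicate 1 was far above its group. The mean rose from 14.4% ± 2.49 to 26.9% ± 13.2 (SD, n = 5), a difference of 0.79 on the log2 scale (exact permutation p = 0.0079, the smallest this design can give, adjusted p = 0.024). Any ratio whose groups do not overlap gets this p, and adjustment covered these 3 ratios only, not all genes. Among single genes, 4.15% had every Rragc S74N/+ value above every Rragc +/+ value, and the share among other ratios was not computed.

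For Psmb9 the shares of Psmb6 were 2.50%, 2.40%, 2.27%, 1.14% and 1.15% in Rragc +/+ and 1.63%, 1.57%, 4.97%, 2.13% and 3.97% in Rragc S74N/+ kidneys. Only 2 of 5 Rragc S74N/+ samples were above the other group, and the difference of 0.47 on the log2 scale did not pass (exact permutation p = 0.29, adjusted p = 0.29). Without Rragc S74N/+ replicate 1 the differences were 0.85 for Psmb8 (exact permutation adjusted p = 0.036), 0.55 for Psmb10 (0.024) and 0.63 for Psmb9 (0.17). The ratios of Psmb8 and Psmb10 kept an adjusted p of 0.024 to 0.048 when each sample was left out in turn. For Psmb10 this was partly fixed in advance, because leaving out a sample cannot make separate groups overlap. Ratios differ where either gene moves, and Psmb7 was lowest in Rragc S74N/+ replicate 1, at 174.4 normalized counts against 239 to 342 elsewhere.

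**Figure D3:**
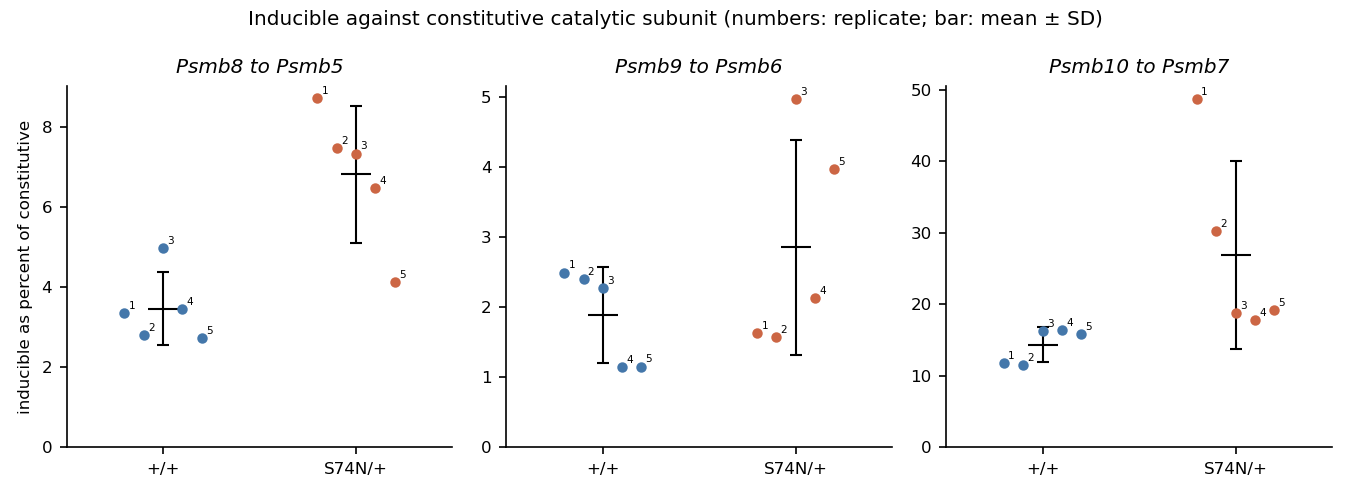
Inducible proteasome subunit as a percent of the constitutive subunit it replaces (vertical axes, each from 0) in 5 Rragc +/+ (blue) and 5 Rragc S74N/+ (orange) kidneys, with replicate numbers and bars at the mean ± SD. Orange points lie above the blue range in 4 of 5 samples for Psmb8, 2 of 5 for Psmb9 and 5 of 5 for Psmb10, where replicate 1 reaches 48.7%.

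Nlrc5, the transactivator of class I genes, was the least abundant member and had the widest difference. It had 2.2, 3.1, 10.6, 5.2 and 2.0 normalized counts in Rragc +/+ and 14.9, 17.4, 13.0, 6.1 and 16.5 in Rragc S74N/+ kidneys. All Rragc S74N/+ samples but replicate 4 lay above the Rragc +/+ range, whose top was replicate 3. The log2 fold change was 1.50 ± 0.47 (SE, 95% interval 0.50 to 2.49), a 2.82-fold difference, with a limma adjusted p of 0.070. With 1 sample left out in turn, the limma adjusted p ran from 0.040, without Rragc +/+ replicate 3, to 0.15, without Rragc +/+ replicate 2. On the 8 recovered samples it was 0.13 by edgeR, 0.13 by DESeq2 and 0.14 by limma. The Nlrc5 counts rest on 2 to 18 reads per recovered sample. The exact Poisson 95% interval, which covers counting error only, ran from 0.242 to 7.22 for 2 reads and from 10.7 to 28.4 for 18 reads.

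Different members were highest in different samples. Rragc S74N/+ replicate 3 had 8 of 10 members above every Rragc +/+ value, replicates 1 and 2 had 6 each, replicate 5 had 4 and replicate 4 had 2. The share of all genes above every Rragc +/+ value was not computed per replicate, so these counts are not read as particular to the members. Replicate 1 held the highest value of H2-D1, Tap1, Tapbp and Psmb10 and at the same time the lowest of H2-K1 and B2m. Replicate 3 was highest for Tap2, Psmb8 and Psmb9, and replicate 2 for B2m and Nlrc5. The genes whose profile over the 10 samples lay nearest to the mean centered profile of the members were Tbc1d8b, Alcam, Tet1, AW554918 and Nub1, with root mean square differences of 0.12, 0.14, 0.16, 0.16 and 0.16 on the log2 scale. Limma adjusted p for these 5 genes ran from 0.065 to 0.37.

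Other genes of the class I route showed no called change. Among other class I and class I-like chains, 8 of 21 listed genes were measured and 0 passed, with a median log2 fold change of 0.17. The smallest p belonged to Azgp1, a class I-like secreted glycoprotein (0.27 ± 0.16, SE, limma adjusted p = 0.32), and Fcgrt, the heavy chain of the neonatal Fc receptor (-0.19 ± 0.14, adjusted p = 0.44). At an unadjusted p under 0.05 this list also had 0 genes. Among 14 chaperones, translocon parts and trimming peptidases outside the members, 0 passed at either level, with a median of -0.08. Those with the smallest p were the translocon subunit Sec61b (-0.31 ± 0.15, limma adjusted p = 0.22) and the dislocation factor Derl1 (-0.30 ± 0.15, adjusted p = 0.22). Of 5 measured genes for proteasome activators and assembly, 0 passed, with a median of 0.09. Psme4, the activator PA200, had 0.26 ± 0.12 (limma adjusted p = 0.19, the only one of the list with an unadjusted p under 0.05) and Psme1, a subunit of the PA28 activator, had 0.19 ± 0.12 (adjusted p = 0.33). By edgeR and DESeq2 these 3 lists had 0 called genes too.

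Among the other 20S core subunits, 1 of 11 rose and 0 fell, beside 3.45% of all genes called higher and 2.58% called lower, with a median log2 fold change of -0.08. The one that rose was Psma1, a structural alpha subunit of the core, with means of 175 ± 18.6 and 257 ± 37.2 normalized counts (SD, n = 5) in Rragc +/+ and Rragc S74N/+ kidneys (log2 fold change 0.54 ± 0.13, SE, limma adjusted p = 0.024). Its groups did not overlap. Leaving out Rragc S74N/+ replicate 1 gave 2 called core subunits in place of 1. The adjusted p of Psma1 rose to between 0.055 and 0.071 without any of Rragc +/+ replicates 1, 2 and 4 or Rragc S74N/+ replicates 4 and 5. Of 21 measured regulators of class I transcription and of interferon gamma signaling, 2 rose and 0 fell, with a median of 0.19. The one described here is Ifngr1, a chain of the interferon gamma receptor, with 182 ± 22.4 and 259 ± 41.8 normalized counts (log2 fold change 0.51 ± 0.14, limma adjusted p = 0.042). Its groups did not overlap. The call was lost without any Rragc +/+ replicate or Rragc S74N/+ replicates 2, 4 and 5, with adjusted p of at most 0.096, and in edgeR (adjusted p = 0.058). The count of called regulators was 0 without Rragc +/+ replicates 1, 2, 4 or 5 or Rragc S74N/+ replicates 2 or 4, and 1 without Rragc +/+ replicate 3 or Rragc S74N/+ replicates 3 or 5.

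Neighboring presentation and interferon programs are given beside the class I genes, with 3.45% of all genes called higher as background. Of 10 measured class II presentation genes, 3 rose and 0 fell, with a median log2 fold change of 0.38. Cd74, the invariant chain, had 909 ± 171 and 1864 ± 245 normalized counts (SD, n = 5) and differed by 1.05 ± 0.14 on the log2 scale (limma adjusted p = 0.00051). Ctss, the cathepsin that trims the invariant chain, had 1.05 ± 0.17 (adjusted p = 0.0032) and H2-DMb2, a chain of the peptide editor H2-DM, had 2.53 ± 0.44 (adjusted p = 0.0043), from means of 4.38 ± 2.60 to 28.0 ± 9.04 normalized counts. Whether class I and class II genes differed in their response was not tested.

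Type I interferon-stimulated genes held 6 that rose and 0 that fell of 27, with a median of 0.53. The smallest p belonged to Parp14 (0.94 ± 0.20, limma adjusted p = 0.014), Trim30a (0.85 ± 0.19, adjusted p = 0.019), Xaf1 (1.08 ± 0.28, adjusted p = 0.034) and Oasl2 (0.86 ± 0.23, adjusted p = 0.035). Among 11 GTPases and chemokines known as interferon gamma targets, 2 rose and 0 fell, with a median of 0.86. They were Gbp7 (0.86 ± 0.18, limma adjusted p = 0.013) and Iigp1 (1.07 ± 0.28, adjusted p = 0.034), both GTPases of cell-autonomous defense. The count of called interferon-stimulated genes was 1 without Rragc +/+ replicate 2, 2 without Rragc +/+ replicates 4 or 5 or Rragc S74N/+ replicates 2 or 5, and 3 without Rragc S74N/+ replicate 3. For the GTPases and chemokines it was 1 without Rragc +/+ replicates 1, 2 or 5 or Rragc S74N/+ replicates 2, 3 or 5, and 4 without Rragc S74N/+ replicate 4.

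**Figure D4:**
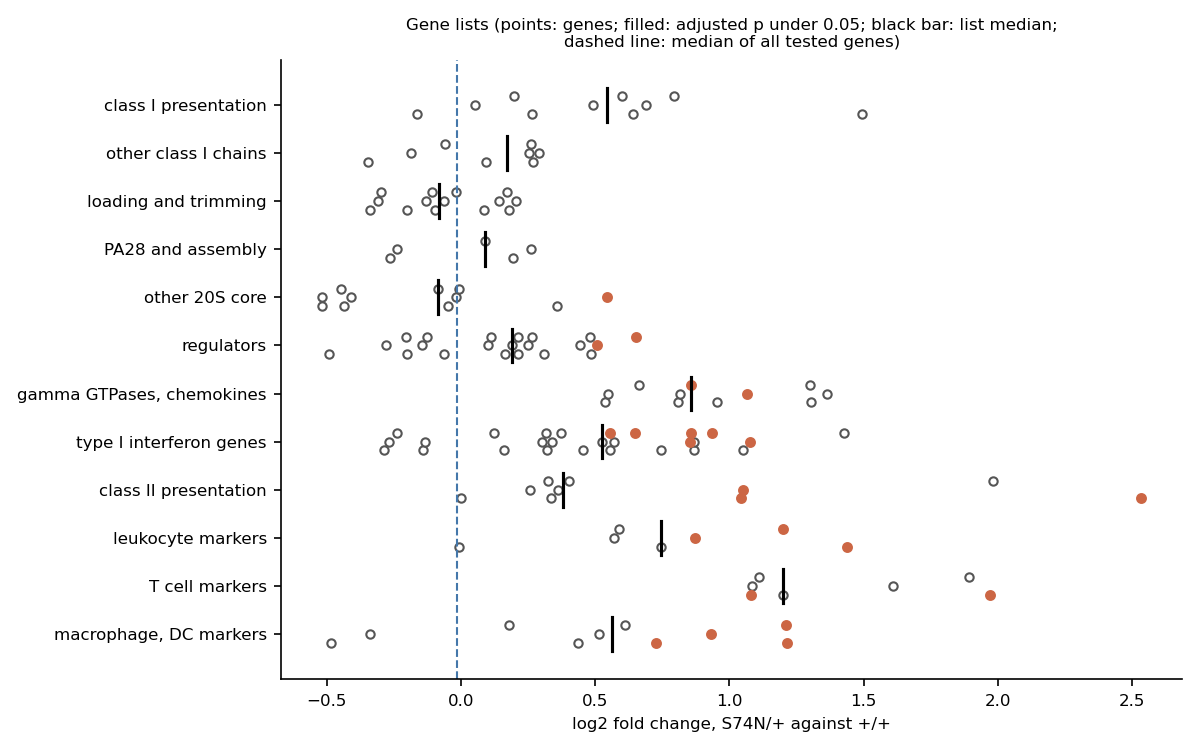
Fitted log2 fold change (horizontal axis, Rragc S74N/+ against Rragc +/+) of every tested gene in 12 lists, with filled points for an adjusted p under 0.05, black bars for list medians and a dashed line for the median of all genes tested. The class I presentation list has no filled point and a median of 0.55, and the lists of regulators, interferon-stimulated genes, class II genes and leukocyte markers have filled points to the right only.

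Leukocyte markers moved in the same comparison, in which 3.45% of all genes were called higher. Of 7 measured markers of all leukocytes 3 rose, led by Ptprc (CD45), which was higher by 1.20 ± 0.18 on the log2 scale (limma adjusted p = 0.0015), and their sum was 305 to 398 normalized counts in Rragc +/+ and 492 to 748 in Rragc S74N/+ kidneys. T cell markers had 2 of 7 higher, and their sum was 33.8 to 72.0 against 107 to 158. The first marker of that list, Cd3d, had 1.20 ± 0.55 (limma adjusted p = 0.19), and Trac and Trbc1, constant regions of the T cell receptor, were the ones that passed (1.08 ± 0.27 with adjusted p = 0.030, and 1.97 ± 0.43 with 0.016). Macrophage and dendritic cell markers had 4 of 10 higher (C1qb, Lyz2, Mpeg1 and Cx3cr1, limma adjusted p of 0.0015 to 0.013), although Adgre1 (F4/80) had 0.18 ± 0.35 (adjusted p = 0.79), and their sum was 673 to 877 against 1057 to 1391. Only 2 of 9 listed cytotoxic cell markers were measured, without Ncr1, Gzmb or Prf1. Of these, Ccl5 rose (1.19 ± 0.31, limma adjusted p = 0.032), with Nkg7 at 0.84 ± 0.41 (adjusted p = 0.21) and sums of 20.1 to 39.4 against 38.2 to 77.7. Only 3 of 7 listed neutrophil markers were measured, without Ly6g or Mpo. Of these, S100a9 rose (1.46 ± 0.40, limma adjusted p = 0.040), with S100a8 at 1.14 ± 0.37 (adjusted p = 0.074) and sums of 21.1 to 38.0 against 43.0 to 83.0. B and plasma cell markers had 0 of 5 past the threshold and 3 at an unadjusted p under 0.05, with the smallest p for Ms4a1 (CD20, 1.62 ± 0.55, limma adjusted p = 0.084) and Igkc (1357 ± 621 and 2795 ± 1695 normalized counts, adjusted p = 0.10), Cd79b at 0.86 ± 0.58 (adjusted p = 0.37) and sums of 859 to 3070 against 1602 to 6873. No measured leukocyte marker was at 0 in every sample. Rragc S74N/+ replicate 3, with the most members above the Rragc +/+ range, had the lowest leukocyte sum of its group and the highest T cell sum, and replicate 4, with the fewest, had the lowest T cell and macrophage sums. The part of these cells in the values of class I genes was not tested.

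Markers of kidney cells moved too, beside 3.45% of all genes called higher and 2.58% called lower. Thick ascending limb and distal nephron markers had 3 of 7 lower, Umod (-1.55 ± 0.23, SE, limma adjusted p = 0.0013), Slc12a3 (-1.94 ± 0.14, adjusted p = 1.6e-06) and Calb1 (-0.74 ± 0.15, adjusted p = 0.0092). The other 4 had fitted differences above 0, up to 0.42 and none called, and the median of the 7 was 0.04. The sum of all 7, in which abundant genes weigh most, was 14069 to 16667 in Rragc +/+ against 6964 to 10935 in Rragc S74N/+ kidneys. Proximal tubule markers had 1 of 8 lower, the glucose transporter gene Slc5a2 (-1.05 ± 0.14, limma adjusted p = 0.00048), while Slc34a1 had -0.17 ± 0.12 (adjusted p = 0.40). Endothelial markers had 1 of 7 lower, Plvap (-0.93 ± 0.18, limma adjusted p = 0.0088), with Pecam1 at 0.31 ± 0.18 (adjusted p = 0.30) and sums of 1729 to 1977 against 1633 to 2101. Fibroblast markers had 2 of 6 higher, led by Col1a1 (1.19 ± 0.15, limma adjusted p = 0.00047), with sums of 733 to 1284 against 1160 to 1918. Podocyte markers had 1 of 5 higher, Synpo (0.45 ± 0.13, limma adjusted p = 0.047), with Nphs1 at 0.53 ± 0.24 (adjusted p = 0.18) and sums of 697 to 816 against 831 to 1048. Their part in the class I values was not tested.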

How the data were processed

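Total RNA of 10 whole kidneys, 5 per genotype, was sequenced from oligo-dT primed 3′ libraries. The authors checked reads with FastQC 0.11.7, aligned them to GRCm39 with TopHat2 2.0.10, Bowtie 1.0.0 and SAMtools 0.1.19, and counted sense-strand reads per gene with HTSeq 0.6.1. The deposited signal values are read counts that the authors divided by a size factor per sample. Lists and members were chosen with earlier results of these data known.

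Genes with a normalized count of at least 5 in at least 5 samples were kept (13236, with 63 removed). On log2(value + 1), limma 3.58.1 (R 4.3.3) tested genotype (eBayes with a variance trend, two-sided, Benjamini-Hochberg over all tested genes at 0.05). Fold changes are on this scale, which understates changes of low genes. In 8 columns, 100% of values were whole reads within a tolerance of 0.1, and edgeR 4.0.16 and DESeq2 1.42.0 were run on these. Rragc +/+ replicate 5 and Rragc S74N/+ replicate 3 entered neither, because the value of 1 read there was too near 1 for the test applied. limma on the same 8 samples was added after the data were seen. Per the study, each sample was a kidney of a different mouse, so p-values measure the spread between mice.

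Named genes were the members, the constitutive catalytic subunits, up to 4 called genes per list with the smallest p (or the 2 smallest where none was called), the first marker of each cell type, and the 5 genes nearest to the members' profile. H2-Q4, H2-Q6, H2-Q7 and H2-T22 were named after their values were seen. Genes that do not appear in the table were not analysed here. The result of 1 called gene among the regulators is not reported here. The fit was tested on simulated data.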

Additional observations from a re-analysis of the deposited data

How the results depend on the processing

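No paired analysis was made, because each sample came from a different mouse and the labels name no pairs. Over 216 refits of single members, 204 kept direction and side of the threshold, 9 passed it in addition and 3 changed sign, all of B2m: -0.0014 by DESeq2, -0.011 in limma on 8 samples and -0.0039 without Rragc S74N/+ replicate 2 (range over left-out samples -0.0039 to 0.13). Members called were 2 with equal library totals (Psmb8, adjusted p = 0.0498, and Psmb10, 0.043), 1 with a term for sample titles numbered over 200 (Psmb8, 0.040), 1 by DESeq2, and 0 to 2 with 1 sample left out. Equal totals moved the median of all genes by 0.08 and the calls over all genes from 457 higher and 341 lower to 718 and 225. Calls over all genes were 391 without the variance trend, 1402 by DESeq2 and 311 to 902 with 1 sample left out (fewest without Rragc +/+ replicate 2). Core subunits had 2 calls with a minimum mean of 50, with equal totals and with equal 75th percentiles, 0 without the trend, 3 by DESeq2 and 0 to 2 with 1 sample left out. Regulators had 0 without the trend, by edgeR and in limma on 8 samples, 1 by DESeq2 and 0 to 2 with 1 left out. Interferon-stimulated genes had 2 without the trend, by edgeR and in limma on 8 samples, and 1 to 7 with 1 left out. GTPases and chemokines had 5 with equal totals, 1 without the trend, by edgeR and in limma on 8 samples, and 1 to 4 with 1 left out. Class II genes had 3 or 4 with 1 left out. Both tested subunit ratios that passed did so in every refit, which was partly fixed in advance for Psmb10, whose groups did not overlap. The causes were not tested. Depth limits Nlrc5, Tap2 and Psmb9, which rest on few reads.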
